A study of Mus musculus with 4 samples.

Results

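B cells are the lymphocytes that carry immunoglobulin on their surface and, once activated, give rise to antibody-secreting plasma cells. In these data they were the few barcodes of sorted lung macrophages that held UMIs of Cd79a and Cd79b, which encode the signalling partners of the B cell receptor, and of Ms4a1, which encodes the surface protein CD20. A UMI is a molecular barcode that marks 1 captured RNA molecule. Barcodes entered with 1000 or more UMIs, 500 or more detected genes and no more than 10% of UMIs from mitochondrial genes, and are called kept barcodes. A kept barcode was then taken as a B cell with at least 3 UMIs of the 3 genes together, under 4 UMIs of 6 T cell receptor and CD3 genes, under 5 UMIs of C1qa, C1qb and C1qc, and under 0.4% of UMIs from the alveolar macrophage genes Chil3, Ear1, Ear2, Fabp1, Lpl and Plet1. The rule took 113 of 22258 kept barcodes. The 3 marker genes chose them, so their levels are given as a description.

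The lungs came from female mice of 2 genotypes, wildtype FVB and MMTV-HER2, in which the HER2 oncogene is driven by a mammary tumour virus promoter. One wildtype and one HER2 library were made at 16 weeks (early) and again at 32 weeks (late). The females were littermates, and the labels give palpable tumours for the late females without naming a genotype. Lungs were digested with collagenase, red cells were lysed, lung macrophages were sorted by flow cytometry and the cells were loaded on a droplet 3′ assay. There was 1 library per group, so no difference below has a replicate check, no p-value is given, and intervals cover counting error only. The number of mice behind each library and the antibodies of the sort are not given in the sources used here. The labels call the cells macrophages, and the sort gate can set every share of B cells below.

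A mature B cell displays IgM and IgD with either a kappa or a lambda light chain, and the pair Cd79a and Cd79b passes the signal of that receptor to kinases such as Syk and Lyn. The transcription factors Ebf1 and Pax5 hold B cell identity, and Cd74 with the MHC class II genes serves antigen presentation to T cells. In the lung, B cells lie in the vessels, in the tissue and in lymphoid aggregates beside the airways. Digestion and sorting do not tell these places apart.

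Wildtype early gave 20 B cells, HER2 early 36, wildtype late 38 and HER2 late 19, and values are listed in this order of libraries throughout. Libraries held 28786682 to 39228655 UMIs in all and 5126 to 6554 kept barcodes. Median UMIs per B cell were 3374, 2638, 1654 and 2894, against 4387, 3808, 4486 and 4465 in the other kept barcodes. Wildtype late thus had the shallowest B cells. Of the 113 barcodes, 88 held all 3 marker genes, 22 held 2 of them and 3 held only 1. The median was 11 marker UMIs, 6 barcodes stood at the limit of 3, and 2 barcodes that met the other limits stood just outside it at 2 UMIs. Kept barcodes with 3 or more marker UMIs numbered 146, of which 33 went out, 18 through the C1q limit, 14 through the alveolar macrophage limit and 5 through the T cell limit (some through more than 1). No B cell barcode was shared with another library.

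The rule itself limited UMIs of T cells and of macrophages, so their low counts are a description and no check of identity. No UMI of the 6 T cell genes was found in 109 of the 113, no C1q UMI in 104, and no UMI of the 6 alveolar macrophage genes in 58. Endothelial genes were not limited by the rule. Pecam1, Cdh5, Cldn5, Calcrl, Ramp2 and Emcn, which mark the cells that line vessels, together had 16 or more UMIs in 28 of the 113 barcodes and 3 or fewer in the other 85, with none in between. These 28, counted as those with 10 or more such UMIs, are called endothelial-rich below, a split that was chosen after the values were seen. They were 7, 6, 9 and 6 barcodes, or 24.8% of all B cells (exact Clopper-Pearson 95% interval 17.1 to 33.8).

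**Figure D1:**
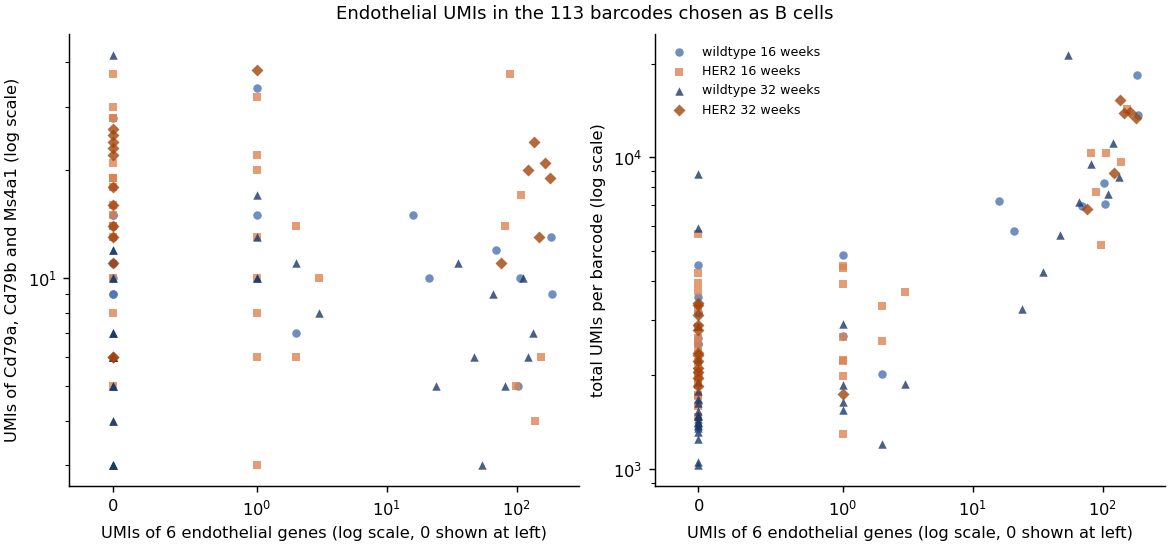
UMIs of 6 endothelial genes in each of the 113 barcodes (horizontal axes, log scale) against UMIs of Cd79a, Cd79b and Ms4a1 (left) and against total UMIs (right, both log scales), coloured by library. The 28 endothelial-rich barcodes lie at the right of both panels, at 16 to 186 endothelial UMIs and 3261 to 21338 total UMIs, apart from the other 85 at 0 to 3 endothelial UMIs.

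The endothelial-rich barcodes carried both sets of genes at once. Their median was 10 B marker UMIs, against 12 in the endothelial-poor ones, so that the number of B marker UMIs differed little while total UMIs differed widely. Median UMIs per barcode were 7253, 9996, 7630 and 13624 in the endothelial-rich and 2632, 2462, 1480 and 2322 in the endothelial-poor barcodes. Endothelial barcodes without B, T, C1q or alveolar macrophage genes had 6386, 5761, 3688 and 5710. On the CPM scale (UMIs of a gene per 1000000 UMIs of the summed barcodes), the 3 B markers stood at 1099, 1441, 789 and 1497 in the endothelial-rich barcodes and at 5128, 5897, 4672 and 7538 in the endothelial-poor ones. The 6 endothelial genes stood at 10147, 11580, 8569 and 11432 CPM against 107, 182, 172 and 31.1 CPM. The split used these same 6 genes, so their contrast is a description. Whether 2 cells shared a droplet in these barcodes was not tested.

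The same endothelial count was reached by 32 of 283 barcodes with T cell genes (11.3%, interval 7.86 to 15.6), by 9 of 1815 with C1q genes (0.496%) and by 26 of 18967 with alveolar macrophage genes (0.137%). Each of these kinds was chosen with under 3 B marker UMIs and within the limits for the other kinds. Read from the other side, 31 of 329 kept barcodes with 10 or more endothelial UMIs held 3 or more B marker UMIs (9.42%, interval 6.49 to 13.1), 5 held 1 or 2, and 293 held none. The endothelial-rich barcodes held 64.4, 41.1, 57.5 and 69.2% of all UMIs of the B cells chosen by the rule. Sums over all 113 barcodes thus rest in good part on them, and each comparison below is given with and without them.

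One further barcode of wildtype late stood apart. It held 160 UMIs of Jchain, which encodes the joining chain of secreted antibody, 921 of Igha, the constant region of IgA, and 2451 of the kappa light chain Igkc among 5938 UMIs. These were 100, 99.5 and 78.6% of the UMIs of those genes over the 38 B cells of that library. It met the rule through 3 UMIs of Cd79a, and Cd79b, Ms4a1, Ighm and Ighd were at 0. Xbp1 and Mzb1, which serve antibody secretion, had 4 UMIs each, the plasma cell surface gene Sdc1 had 3, and 25 UMIs fell on the single kappa variable segment Igkv9-120. The genes of this barcode go against the label of a B cell that carries Cd79b and Ms4a1, and its leading genes are those of antibody secretion. It is left out wherever the endothelial-poor set is used, which leaves 84 B cells: 13, 30, 28 and 13. Another barcode of wildtype late, an endothelial-rich one, held 712 UMIs of Sftpc, the surfactant gene of alveolar type 2 cells, 80 of Inmt and 57 of Mgp among 21338 UMIs, with 1 UMI of Cd79a and 2 of Ms4a1.

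The genes that set the 84 endothelial-poor B cells apart from the other kept barcodes were ranked by the smallest of the 4 ratios of CPM, one per library. Because the marker genes chose the cells, this ranking is a description. Fcmr, the receptor for IgM, came first at 510, 461, 364 and 716 CPM, at least 1126-fold above the other barcodes in each library. Cd79a (893-fold), Ms4a1 (841-fold), Pax5 (613-fold), Ebf1 (585-fold) and Cd79b (548-fold) followed, and the rest included Spib, Fcer2a, Ly6d, Cr2, Pou2af1, Tnfrsf13c, Fcrla, Bank1, Vpreb3, Siglecg, Bcl11a, Ms4a4c and Gimap7. Of these 20 genes 17 were not used by the rule. All but Gimap7 stood at least 61.3-fold above the other barcodes in every library.

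Pou2af1 encodes a coactivator that B cells use with the octamer-binding proteins, and Spib and its relative PU.1 bind sites with the core GAGGAA. The 250 bases before each start in RefSeq (GRCm38.p6) were therefore searched on both strands for the octamer ATTTGCAT, for the EBF palindrome (TCCC, any 2 bases, then GGGA) and for GAGGAA. No match of one motif overlapped a match of another. Of the 20 genes 16 matched, with 20 start sites. The octamer was found at 2 of the 20 starts, those of Vpreb3 and Ms4a4c, and in 1.60% of 32851 starts of all genes. GAGGAA was found at 7 of the 20 (Fcmr, Fcrla, Gimap7, Cd79a, Siglecg, Ebf1 and Ms4a4c) and in 23.3% of all, and the EBF palindrome at 0 of the 20 and in 0.779% of all. A match is a string of letters and not a bound site. The 2 starts with an octamer are shown with that of the marker gene Cd79a, as the plus strand read 5′ to 3′ with matches in capitals. Vpreb3 lies at chr10:75948050-75948299 with its octamer 45 bases before the start, Ms4a4c at chr19:11407411-11407660 with its octamer 170 and its GAGGAA 61 bases before the start, and Cd79a at chr7:24897247-24897380, cut where the GENCODE M21 exon begins, with GAGGAA on the minus strand.
Vpreb3: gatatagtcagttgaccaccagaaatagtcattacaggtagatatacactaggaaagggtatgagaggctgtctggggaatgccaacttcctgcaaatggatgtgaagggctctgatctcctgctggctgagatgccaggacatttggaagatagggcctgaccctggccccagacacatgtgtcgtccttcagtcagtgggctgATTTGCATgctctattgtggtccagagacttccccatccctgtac
Ms4a4c: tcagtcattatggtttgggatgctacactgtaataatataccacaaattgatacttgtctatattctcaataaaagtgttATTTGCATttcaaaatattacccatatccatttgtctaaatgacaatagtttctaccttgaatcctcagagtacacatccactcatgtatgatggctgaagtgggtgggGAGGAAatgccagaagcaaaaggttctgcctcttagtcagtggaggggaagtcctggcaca
Cd79a: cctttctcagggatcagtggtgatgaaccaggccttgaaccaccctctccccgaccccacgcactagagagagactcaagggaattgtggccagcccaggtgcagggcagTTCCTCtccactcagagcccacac

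Levels of B cell genes were then compared across the 84 endothelial-poor B cells, whose summed UMIs per library were 37250, 82412, 52231 and 32104. These are levels on a UMI scale with no correction for gene length. Receptor genes were read first. Ighm, the IgM heavy chain, stood at 2631, 2670, 2738 and 2866 CPM, and its exact Poisson intervals overlapped in every pair. Igkc stood at 8564, 10411, 9439 and 10030 CPM, and the interval of wildtype early (7650 to 9557) lay below that of HER2 early (9726 to 11132). Ighd, the IgD heavy chain, was at 966, 813, 842 and 1620 CPM, highest in HER2 late (interval 1210 to 2124), where its interval lay above those of HER2 early (630 to 1032) and wildtype late (612 to 1131) and overlapped that of wildtype early (677 to 1338). Cd79b had the same order at the top, with 2990 CPM in HER2 late (2422 to 3652) and 1611, 1772 and 1781 in the others. Cd79a stood at 2255, 2621, 1838 and 3582 CPM. Its interval in HER2 late (2957 to 4300) lay above those of wildtype early (1799 to 2792) and wildtype late (1489 to 2244), and that of wildtype late lay below that of HER2 early (2283 to 2995). Ms4a1 stood at 1262, 1505, 1053 and 966 CPM. Cd79a, Cd79b and Ms4a1 chose the cells, so these 3 are a description.

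Of the signalling genes, Syk, the kinase recruited to the receptor, stood at 268, 461, 306 and 311 CPM, Lyn at 242, 315, 249 and 405, and Bank1, an adaptor of B cells, at 671, 680, 747 and 436. Their intervals overlapped between all libraries. Among the transcription factors, Ebf1 stood at 1960, 2184, 2125 and 2461 CPM, Mef2c at 1020, 1092, 1398 and 934, Ets1 at 805, 546, 670 and 530, and Pax5 at 456, 279, 421 and 249. Ltb, a cytokine that shapes lymphoid tissue, stood at 1154, 1128, 708 and 1215 CPM. Cd74, the chaperone of MHC class II, stood at 12510, 12802, 10032 and 11992 CPM and H2-Ab1 at 2523, 2694, 2738 and 3364. H2-Aa stood at 4242, 4575, 2163 and 3862 CPM, lowest in wildtype late. Of the survival receptors, Tnfrsf13c, the receptor for BAFF, stood at 349, 206, 191 and 187 CPM and its relative Tnfrsf13b at 215, 255, 191 and 187.

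**Figure D2:**
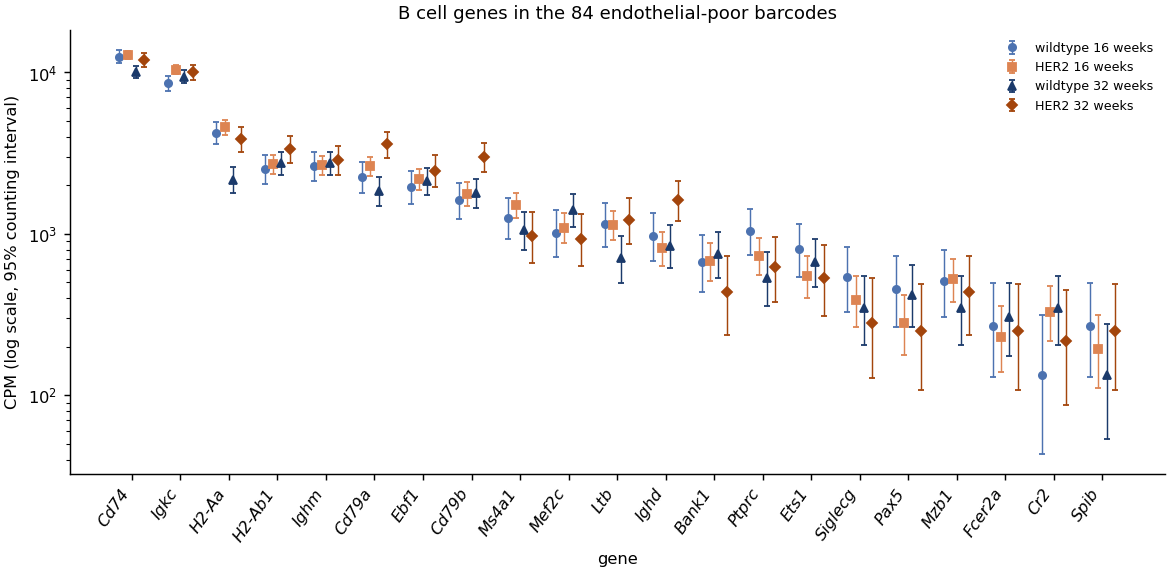
CPM (log scale) of 21 B cell genes in the summed endothelial-poor B cells of each library, 13, 30, 28 and 13 barcodes, with exact Poisson 95% intervals. Ighm lies within overlapping intervals across the libraries, while Cd79b and Ighd are highest in HER2 late and H2-Aa lowest in wildtype late.

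Genes that mark kinds and stages of B cells were then read in the same cells. Fcer2a, the low-affinity IgE receptor CD23 of follicular B cells, stood at 268, 231, 306 and 249 CPM in 5, 17, 13 and 6 cells. Cr2, the complement receptor CD21, stood at 134, 328, 345 and 218 CPM and is in both the follicular and the marginal zone list. The follicular list had 99, 205, 140 and 104 UMIs in 13, 29, 27 and 13 cells. The marginal zone list had 47, 112, 55 and 28 UMIs in 13, 25, 23 and 10 cells. The age-associated and memory list had 3, 11, 0 and 2 UMIs. Cd5 and Spn, markers of B-1 cells, had no UMI in any of the 84 cells. The whole B-1 list, which also holds Bhlhe41, Zbtb32, Ctla4, Itgam, Cd9 and Ahnak, had 12, 20, 27 and 3 UMIs. These lay in 3, 8, 9 and 3 cells. Il10 and Il6 had no UMI, and neither had Rag1, Rag2, Dntt, Igll1 or Il7r, which mark progenitors. Vpreb3, of the same list, stood at 403, 437, 459 and 810 CPM, and Cd93, Sox4 and Myb had 0 to 3 UMIs per library. Of the germinal centre genes Bcl6 had 3 UMIs, and that whole list had 2, 2, 3 and 0 by library. Of the cycling genes Mki67 had 1 and Top2a 2, while the whole cell cycle list had 20, 52, 19 and 18 UMIs. These lay in 9, 26, 12 and 8 cells. At these totals a count of 0 leaves room for low levels.

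Immunoglobulin was also counted per cell. Every one of the 113 barcodes held Igkc, with medians of 20.5, 22.5, 16.0 and 23.0 UMIs. Ighm or Ighd was found in 109 of the 113. The other 4 held another class in place of it: 3 endothelial-poor cells had 3 (wildtype early), 11 and 6 (both HER2 early) IgG UMIs, and the fourth was the Jchain-rich barcode with Igha. Of the 84 endothelial-poor B cells 81 thus held UMIs of IgM or IgD, which other kinds of barcode also held at lower shares, given next. Ighm UMIs outnumbered Ighd UMIs in each library, by 2.72, 3.28, 3.25 and 1.77 to 1.

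Cells were thinned to 1000 UMIs to set shares on 1 depth, and a chain was counted from 2 UMIs. IgM or IgD was then found in 60, 72.2, 65.8 and 68.4% of all B cells (12 of 20, 26 of 36, 25 of 38 and 13 of 19), against 95, 94.4, 97.4 and 100% without thinning. In the endothelial-poor B cells it was 76.9, 83.3, 85.7 and 92.3%, and 84.5% over the 4 libraries (71 of 84, interval 75.0 to 91.5), against 17.9% of the endothelial-rich (5 of 28, interval 6.06 to 36.9). Without thinning it was 96.4% of the endothelial-poor (81 of 84) and 100% of the endothelial-rich (28 of 28), whose higher total UMIs leave fewer immunoglobulin UMIs after thinning. The background was 4.08% of barcodes with C1q genes (74 of 1815), 3.18% of those with T cell genes (9 of 283) and 0 of 230 endothelial barcodes without B genes, which allows a share of up to 1.59% by the exact interval. Without thinning the background was 32.7% of barcodes with C1q genes (594 of 1815), 12% of those with T cell genes (34 of 283) and 1.30% of the endothelial barcodes (3 of 230). All these background barcodes were chosen with under 3 B marker UMIs. Barcodes with C1q or T cell genes and more B marker UMIs are thus not in the background. The intervals of the 4 libraries overlapped, so no difference in IgM or IgD use was detectable with these numbers of cells.

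A B cell is known to display one kind of light chain, and many barcodes held UMIs of both kinds. Kappa was found in 97.6% of thinned endothelial-poor B cells (82 of 84) and lambda, summed over Iglc1, Iglc2 and Iglc3, in 53.6% (45 of 84), and all 45 held kappa too. By library both chains were found in 30.8, 50.0, 67.9 and 53.8%, with overlapping intervals. Over all B cells the shares were 20, 41.7, 52.6 and 47.4%, and 85.0, 86.1, 78.9 and 89.5% without thinning. Kappa was found in 5 of 1815 barcodes with C1q genes (0.275%) and lambda in 1, and neither chain in any of 283 barcodes with T cell genes or 230 endothelial barcodes. These are the same background barcodes, chosen with few B marker UMIs. In barcodes of 10 to 100 UMIs, which hold free RNA, Igkc was at 24.4, 29.4, 92.4 and 14.3 CPM. Iglc2 and Iglc3 are near-identical copies, so the split between them is uncertain, and whether reads of one chain were assigned to another was not tested. Lambda took 16.9, 19.1, 21.0 and 19.3% of the light chain UMIs of endothelial-poor B cells, and lambda outnumbered kappa in 2, 3, 0 and 0 of them.

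**Figure D3:**
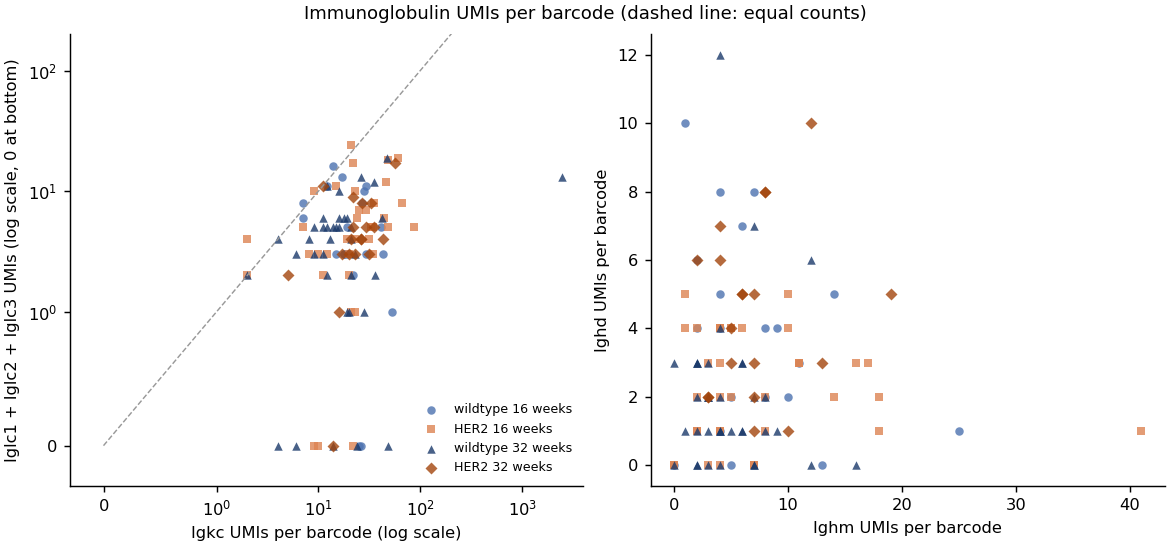
Left, kappa (Igkc) against lambda (Iglc1, Iglc2 and Iglc3 summed) UMIs per barcode, both on log scales with a dashed line of equal counts; right, Ighm against Ighd UMIs per barcode on linear scales, for all 113 B cells without thinning. Most barcodes lie on the kappa side and hold some lambda UMIs, and the Jchain-rich barcode of wildtype late stands alone at 2451 Igkc UMIs.

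Variable segments were seen too rarely for clones to be read. They gave 64 UMIs in 44 of the 84 endothelial-poor B cells, spread over 40 segments, and the most widely shared segment was found in 5 cells.

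The share of B cells was compared between genotypes at each age. B cells were 0.367% of kept barcodes in wildtype early (20 of 5449, interval 0.224 to 0.566), 0.702% in HER2 early (36 of 5126, 0.492 to 0.971), 0.741% in wildtype late (38 of 5129, 0.525 to 1.02) and 0.290% in HER2 late (19 of 6554, 0.175 to 0.452). HER2 over wildtype was 1.91-fold early (interval 1.08 to 3.49) and 0.391-fold late (0.213 to 0.696). The direction at 16 weeks was thus opposite to that at 32 weeks, and the difference between the ages was not tested. Late over early was 2.02-fold in wildtype (1.15 to 3.66) and 0.413-fold in HER2 (0.224 to 0.739). The 4 ratios share libraries.

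Without the endothelial-rich barcodes and the Jchain-rich one the shares were 0.239, 0.585, 0.546 and 0.198%, and the ratios were 2.45 (1.24 to 5.12) early and 0.363 (0.173 to 0.725) late. Depth also differed between the libraries, and wildtype late had the shallowest B cells. With a minimum of 2000 UMIs, 14 of the 38 B cells of wildtype late remained, at 0.293% of kept barcodes, and HER2 over wildtype was 1.59 early and 0.886 late, both with intervals that hold 1. Among kept barcodes with under 0.4% alveolar macrophage genes the shares were 3.28, 5.16, 4.33 and 2.34%. HER2 over wildtype early was then 1.57, with an interval that holds 1.

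**Figure D4:**
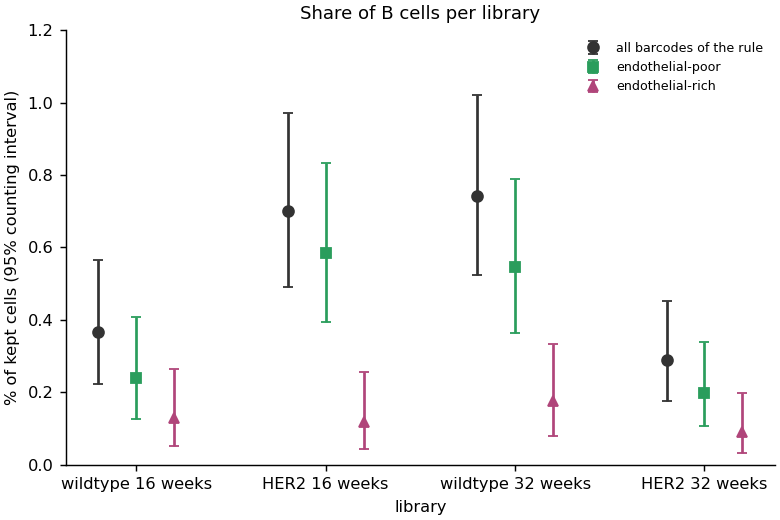
Share of kept barcodes (per cent, linear axis from 0) in each library for all 113 B cells, the 84 endothelial-poor and the 28 endothelial-rich ones, with exact Clopper-Pearson 95% intervals. All and endothelial-poor B cells are highest in HER2 early and wildtype late, while the endothelial-rich stay between 0.0915 and 0.175%.

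Gene levels were compared between libraries as ratios of CPM of summed UMIs, with exact conditional binomial intervals. A gene with at least 100 CPM in either library was called when its ratio was 2-fold or more and its interval left out 1, and for a gene at 0 in one library a floor of 3 counts over that library's B cells gives a lower bound. Over all 113 B cells, HER2 early had 34 genes higher (1.86% of 1832 tested) and 133 lower (7.26%) than wildtype early. HER2 late had 139 higher (6.93% of 2005) and 122 lower (6.08%) than wildtype late. Wildtype late had 112 higher (5.56% of 2014) and 135 lower (6.70%) than wildtype early, and HER2 late 167 higher (9.12% of 1832) and 59 lower (3.22%) than HER2 early.

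The genes at the head of those lists included genes of vessels and of the alveolar epithelium. In HER2 early the matrix inhibitor gene Timp3 stood at 900 CPM with all its 126 UMIs in 4 barcodes, and the vessel gene Lyve1 had 41 UMIs in 4. In wildtype late Ager and Cxcl15, genes of the alveolar epithelium, had 98 and 67 UMIs in 1 barcode, and in HER2 late all 203 UMIs of Igfbp7 lay in 6 barcodes. The 4 comparisons named 64 such differences in 51 genes. Without the endothelial-rich and the Jchain-rich barcodes 4 of the 64 were still called: Cd55 (HER2 over wildtype early), Hspa1b (late over early in wildtype), Prdx5 and S100a10 (late over early in HER2). Another 7 were no longer called but kept their direction at 2-fold or more, such as Dnajc2, whose log2 ratio of HER2 over wildtype early was 2.67 over all and 2.66 over the endothelial-poor B cells. A further 6 kept their direction under 2-fold, and 47 had no difference or the opposite direction. The 84 endothelial-poor B cells are described from here on.

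At 16 weeks HER2 had 7 genes higher (0.396% of 1768 tested) and 94 lower (5.32%) than wildtype in the endothelial-poor B cells. The median over all tested genes was -0.15 on the log2 scale. Summed UMIs were 37250 in wildtype early and 82412 in HER2 early. A gene thus reaches 100 CPM with fewer UMIs in wildtype early, and the floor of 3 counts stands at a higher CPM there. In each comparison of endothelial-poor B cells, more genes were called high in the library with fewer summed UMIs. The part of depth in these counts was not tested, so they are a description. Cd55, which protects cells from complement, led the higher genes at 485 CPM in HER2 early (40 UMIs in 16 of 30 cells) against 80.5 in wildtype early (3 UMIs in 3 of 13). That is 6.03-fold, or log2 2.59 (interval 0.94 to 4.93). Calm2, a calmodulin, was at 340 against 107 CPM, the histone chaperone Nap1l1 at 692 against 322 and the chromatin regulator Kmt2e at 400 against 134. Pdcd5, Nsmce1 and Apbb1ip made up the rest. In wildtype late Cd55 and Calm2 stood at 383 and 555 CPM, so that wildtype early was below both of these libraries.

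The lower genes of HER2 early rested on few cells of wildtype early. The pore-forming Mpeg1 was at 24.3 against 268 CPM and Cd83, a surface protein of activated B cells, at 36.4 against 295, with all wildtype early UMIs of both in 3 cells. Usp18 and Pmepa1 had 6 UMIs each in 2 and 3 cells of wildtype early, Nr4a1 had 6 in 1 cell, and none of the 3 had a UMI in HER2 early, which makes them at least 4.42-fold lower. Fxyd5, Lmna and Gbp7 were also among the 8 lowest. By lists, 4 of 5 tested interferon response genes were lower (among them Ifi27l2a, Usp18 and Ifi203, list median -1.69), as were 6 of 13 immediate early genes (Fosb, Junb, Egr1, Nr4a1, Btg2 and Klf6, median -0.82), 3 of 10 MHC class II and loading genes (H2-DMb2, Ciita and Ctss) and 3 of 5 costimulation and activation genes (Cd83, Cd69 and Cd24a). So were 2 of 10 homing genes (Ccr7 and P2ry10) and 1 of 7 inhibitory receptor genes (Cd72). The background for lower calls is the 5.32% given above. List genes under 100 CPM in both libraries were not counted. Usp18 and Nr4a1, at 161 CPM in wildtype early and 0 in HER2 early, were tested only through the library where they are high. Such genes tilt these list counts and medians towards lower, so they are a description. No gene was called in the lists of receptor genes (0 of 11), receptor signalling (0 of 13) and transcription factors (0 of 16). The 11 receptor genes, here and in the comparisons below, include Cd79a and Cd79b, which the rule used to choose the cells.

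The interferon genes summed to 2523, 825, 498 and 841 CPM. Wildtype early was the high library, but 78.7% of its 94 UMIs lay in 3 of its 13 cells, and it stood at 1756 CPM without the richest cell. Barcodes with C1q genes had 2023, 834, 759 and 926 CPM, again highest in wildtype early, while those with T cell genes had 1730, 2165, 1777 and 2231. The immediate early genes summed to 5262, 2912, 3542 and 3644 CPM in B cells, and to 3621 in wildtype early without its richest cell. Alveolar macrophage genes outside the rule were also highest in wildtype early, at 1799, 352, 574 and 187 CPM for 13 genes, of which Ccl6 had 28 UMIs in 1 cell of wildtype early. Marco, Siglecf, Cidec and Fabp4 were at 0 in all libraries, and the part of the other macrophage genes in the list results was not tested. The share of UMIs from free RNA was scaled on the level of those same 13 genes, so it is no separate measure. It was 9.03, 1.98, 2.56 and 0.919%.

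At 32 weeks HER2 had 44 genes higher (2.87% of 1533 tested) and 27 lower (1.76%) than wildtype, with a median of -0.11. HER2 late had fewer summed UMIs than wildtype late, so the limit of depth given above holds for these counts too. H2-D1, a heavy chain of MHC class I, was the most abundant of the 8 higher genes named, at 2648 CPM in HER2 late (85 UMIs in 13 of 13 cells) against 1206 in wildtype late (63 UMIs in 25 of 28), which is 2.20-fold or log2 1.13 (0.65 to 1.63). The early libraries had 2174 (wildtype) and 2488 CPM (HER2), so wildtype late was the lowest library for H2-D1. This gene has close relatives in the same gene cluster, so its count is uncertain. H2-K1 had 1215 against 651 CPM and did not reach 2-fold. Ppib, a folding enzyme of the secretory pathway, was at 498 against 95.7 CPM, Ostf1 at 343 against 57.4 and Tprgl at 280 against 19.1. Zdhhc20, Yipf1 and Ppie had no UMI in wildtype late and were at least 3.8, 3.25 and 2.71-fold higher, and Jarid2 had all its 8 UMIs of HER2 late in 3 cells.

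Pdcd4, a brake on translation, led the lower genes at 62.3 CPM in HER2 late (2 UMIs) against 670 in wildtype late (35 UMIs in 17 of 28 cells), with log2 -3.43 (-6.53 to -1.47). The RNA helicase Ddx5 was at 997 against 2221 CPM, Eif4a1 at 31.1 against 306, Iqgap1 at 93.4 against 421 and Snx5 at 62.3 against 364. Ahnak was at 31.1 against 402 CPM, with 90.5% of its wildtype late UMIs in 3 cells. Foxn3 and Mybbp1a had no UMI in HER2 late. In the lists, Cxcr4, the receptor for the chemokine CXCL12, was higher (218 against 19.1 CPM), Ikzf1 was lower (31.1 against 230 CPM), and none of 11 receptor genes and none of 8 heat shock genes was called.

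Across both ages, genes were ranked by the smallest of the 4 ratios between a HER2 and a wildtype library, a choice on the values themselves. Ndufa13, a subunit of respiratory complex I, stood at 315 and 343 CPM in HER2 early and late and at 134 in both wildtype libraries, a smallest ratio of 2.35. Scd1, a fatty acid desaturase, stood at 315 and 311 against 161 and 115 CPM (1.93). Snx5 stood at 133 and 62.3 against 322 and 364 CPM, lower by at least 2.41-fold. Each rests on 2 to 26 UMIs per library.

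Between the ages, wildtype B cells had 30 genes higher late (1.62% of 1854 tested) and 95 lower (5.12%), with a median of -0.22. Wildtype early had fewer summed UMIs than wildtype late, and the part of depth in these counts was not tested. Calm2 was higher at 555 against 107 CPM, Pdcd4 at 670 against 215, Cd55 at 383 against 80.5 and Pml at 268 against 26.8, and Tle4, Rassf5, Cnot3 and Lgals1 had no UMI in wildtype early. Ifi27l2a was lower late, at 191 CPM (10 UMIs in 5 of 28 cells) against 940 early (35 UMIs in 9 of 13), or log2 -2.30 (-3.47 to -1.25). H2-K1, an MHC class I heavy chain, was at 651 against 1906 CPM (log2 -1.55, -2.18 to -0.94) and Junb at 95.7 against 483, while Lnpep and Eprs were lower as well. H2-Aa was at 2163 against 4242 CPM and fell short of 2-fold (log2 -0.97, -1.33 to -0.61).

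Heat shock chaperones were lower in wildtype late across much of their list. In wildtype late 6 of 11 tested were lower than in wildtype early (Hspa1b, Dnajb1, Dnaja1, Hsp90aa1, Hsp90ab1 and Hspa8), beside 5.12% of all 1854 genes tested. None was higher, and the list median was -1.20 against -0.22 for all genes. Hspa8 stood at 2362, 1675, 1015 and 1931 CPM, Hsp90ab1 at 2201, 1917, 881 and 1339, and Dnaja1 at 1047, 801, 325 and 623. Wildtype late was the lowest library for all 3. Hspa1b had 13, 7, 0 and 0 UMIs, with those of wildtype early in 2 cells. Hspa1a and Hspa1b are near-identical copies and their split is uncertain. All 5 tested interferon genes and 5 of 12 immediate early genes were lower too, beside the same 5.12%, with the concentration in few cells of wildtype early given above. Some list genes were tested only through wildtype early, such as Egr1 and Hspa1b with no UMI in wildtype late, so these list counts are a description.

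The 12 chaperone genes summed to 8644, 6407, 3446 and 5077 CPM in the endothelial-poor B cells, and to 6648 in wildtype early without its richest cell. In wildtype early 54.0% of these UMIs lay in 3 of 13 cells. The same sum was lowest in wildtype late in 5 other kinds of barcode. It was 8350, 8229, 3845 and 7219 CPM in the endothelial-rich, 8297, 6934, 4122 and 5883 in those with T cell genes, 6582, 6676, 4302 and 5538 in those with C1q genes and 8191, 7849, 3894 and 6383 in the endothelial barcodes. In those with alveolar macrophage genes, the most numerous kind, it was 6549, 6170, 4760 and 5700 CPM. With 1 library per group, age and library cannot be told apart.

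**Figure D5:**
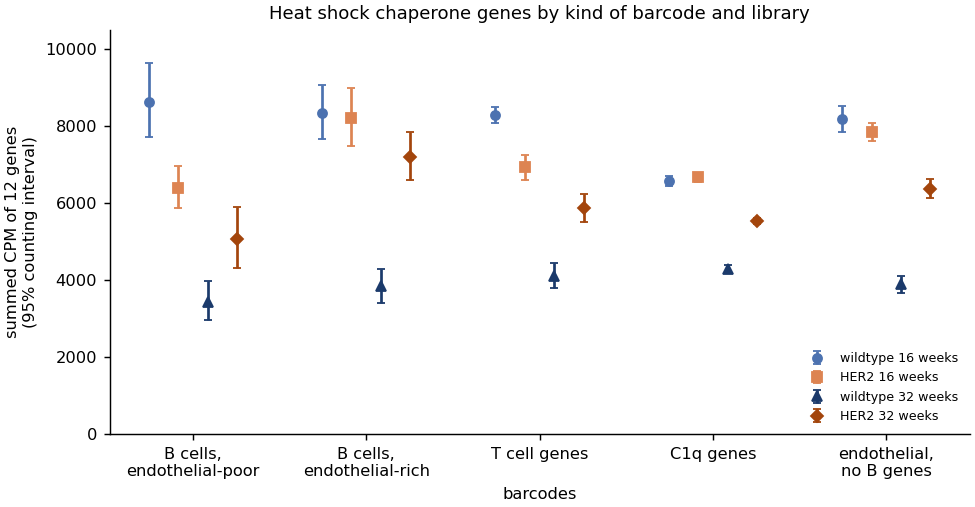
Summed CPM of 12 heat shock chaperone genes (linear axis from 0) by kind of barcode and library, with exact Poisson 95% intervals. Wildtype late is lowest in each of the 5 kinds drawn, at 3446 to 4302 CPM, and HER2 late lies between it and the early libraries.

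HER2 B cells had 35 genes higher late than early (2.37% of 1474 tested) and 21 lower (1.42%), with a median of -0.10. Summed UMIs were fewer in HER2 late than in HER2 early, and the part of depth in these counts was not tested. S100a10, the partner of annexin A2, was lower at 374 CPM (12 UMIs in 9 of 13 cells) against 971 (80 UMIs in 25 of 30), or log2 -1.38 (-2.39 to -0.49). Actr3, a subunit of the actin-nucleating Arp2/3 complex, was at 280 against 764 CPM and Set at 93.4 against 388. Ly6a, Prdx5, Pitpna and Gatad2b had no UMI in HER2 late and 16 to 20 in HER2 early. Ly6a, an interferon-inducible surface protein, was at least 2.21-fold lower. The higher genes rested on few UMIs: Jarid2 had 8 in 3 cells, Ephx1 had 6 in 4, and Ppp3cc, Polr3gl, Zcchc4, Znhit1, Recql and Clpx had 4 or 5 each. In the lists Zfp318, which controls IgD splicing, was higher (405 against 170 CPM) and Ikzf1 lower (31.1 against 231), and none of the 11 receptor genes was called.

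Ribosomal protein genes took 26.6, 30.9, 31.4 and 35.1% of UMIs in the endothelial-poor B cells. In the endothelial-rich barcodes they took 14.0, 11.8, 12 and 12.2%. Mitochondrial UMIs were alike in both, with medians of 5.08, 5.60, 5.35 and 5.69% in the endothelial-poor and 4.70, 6.41, 3.87 and 4.98% in the endothelial-rich.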

How the data were processed

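Droplet single-cell libraries of sorted lung macrophages were analysed, 1 per group. The deposited files hold UMI counts per gene and barcode, with no cell filter visible in the values. Cell Ranger 5.0.1 and mm10 are named per the submitters' processing notes, while the matrices name Cell Ranger 4, per the file headers. The labels' protocols name the 3′ assay as version 1.2, and groups come from the labels' source names. The matrices hold 32285 genes, and the authors' averages over alveolar macrophages were not used.

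The members, gene lists and limits were chosen with earlier results of these data known. Counts were summed per library over the B cells with Python 3.11.15, NumPy 2.4.6 and SciPy 1.17.1, and ratios of CPM were given with exact conditional binomial intervals at 95%. No normalization beyond the total was applied, no doublet caller was run, and doublets were left in. Thinning drew 1000 UMIs per cell without replacement. Genes were named by a rule: in each comparison the 8 highest and 8 lowest called genes by the bound nearest to 1, in both ages together 6 and 6, in each list the called members and the most abundant, and 25 and 20 genes by level and by ratio to other barcodes. Mitochondrial, ribosomal protein, haemoglobin, immunoglobulin, Gm-numbered, Rik and Y-linked genes and Xist were not ranked, nor were other cell types' markers. Some genes that this rule names are not reported here. The calculations were tested on simulated data. Alternatives covered the marker, depth and mitochondrial limits, the CPM minimum, free RNA, weighting of cells and single rich cells. The split by endothelial UMIs was added after seeing the data. Counting intervals do not cover differences between animals, sorts or libraries.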

Additional observations from a re-analysis of the deposited data

Results flagged for a closer look

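The ratio of the share of B cells in HER2 over wildtype was 1.91 at 16 weeks and 0.391 at 32 weeks, on opposite sides of 1 with 1 library in each group. The difference between the ages was not tested. The median depth of B cells was lowest in wildtype late, at 1654 UMIs, and a minimum of 2000 UMIs brought the late ratio to 0.886.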

How the results depend on the processing

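No p-value exists with 1 library per group, and the number of B cells, 19 to 38 per library, limits every value. Shares of B cells moved beyond their counting interval with a denominator under 0.4% alveolar macrophage genes (3.28, 5.16, 4.33 and 2.34%), with a minimum of 2000 UMIs in wildtype late (0.293%) and with at most 5% mitochondrial UMIs in HER2 late (0.171%). HER2 over wildtype early was 1.23 with at most 5% mitochondrial UMIs, 1.59 with 2000 UMIs and 1.57 with the narrower denominator, and late 0.886 with 2000 UMIs, all with intervals that hold 1. Late over early in wildtype was 1.65 with 5 marker UMIs, 1.69 with at most 5% mitochondrial UMIs and 1.32 with the narrower denominator, and turned to 0.820 with 2000 UMIs. Genes called numbered 167, 261, 247 and 226 in the order HER2 over wildtype early and late, then late over early in wildtype and HER2. A minimum of 200 CPM gave 68, 119, 106 and 108, and one of 50 CPM gave 261 in the first. Leaving out endothelial-rich and Jchain-rich barcodes gave 101, 71, 125 and 56. Leaving out barcodes over 2 times the median UMIs gave 73, 110 and 65 in the last 3, leaving out each gene's richest cell 100, 169 and 145 in the first 3, and at most 5% mitochondrial UMIs 256 in the first. S100a6 turned to log2 0.97 (HER2 over wildtype late) and -1.55 (late over early in wildtype) with 5 marker UMIs, and the latter to -1.18 without its richest cell. IgM or IgD was 95, 94.4, 97.4 and 100% without thinning, 86.1, 84.2 and 94.7% from 1 UMI in the last 3 libraries, 44.7% from 3 UMIs in wildtype late, and 85.7 and 92.3% in the late endothelial-poor B cells. Both light chains were at 85.0, 86.1, 78.9 and 89.5% without thinning, at 75.0, 69.4 and 73.7% from 1 UMI in wildtype early, HER2 early and HER2 late, and at 5.00 and 26.3% from 3 UMIs in the wildtype libraries. The cause of these shifts was not tested, and some of these settings also leave fewer cells or genes.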
